A study of Homo sapiens with 9 samples.

Results

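EGR1, EGR2, EGR3, IER2, IER3, IER5, KLF6, NR4A1, SRF and ARC are immediate early genes outside the AP-1 family, and they are described here across 9 RNA sequencing libraries of Kasumi-1 cells. The 10 genes were taken by their symbols from the 59648 genes of the count tables, and all 10 are listed there. Kasumi-1 is an established human cell line of acute myeloblastic leukaemia with the t(8;21) translocation, which makes the fusion transcription factor AML1-ETO (AE, also called RUNX1-RUNX1T1). In 3 libraries the cells carried lentiviral shRNAs against AE, numbered 1, 2 and 3. In 3 libraries they carried shRNAs against LYL1, a basic helix-loop-helix transcription factor, numbered 538, 540 and 542. In the other 3 they carried a control shRNA. In all groups the cells were transduced for 48 h, were then kept for 48 h in 1 µg/mL puromycin, and gave total RNA on day 4. The labels state neither whether the AE numbers are different shRNAs nor whether a group's libraries stem from separate cultures, so the p-values measure the spread between these samples alone, which may be technical. Each LYL1 knockdown library has its own shRNA number, so in that group differences between shRNAs and between replicates cannot be told apart.

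Immediate early genes are switched on by growth factors, stress or receptor signals from factors already in the cell, without new protein synthesis. The kinase ERK phosphorylates the ternary complex factors ELK1, ELK3 and ELK4, which sit with SRF on CArG boxes, the short AT-rich core of the serum response element, and switch on genes such as EGR1. In blood cells, work in mice gave EGR1 and EGR2 roles in the monocyte and macrophage fate and NR4A1 a role in holding back myeloid leukaemia.

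Library totals ran from 20103275 to 28039518 counts. Levels are given as CPM, counts scaled to the library total times its TMM factor, edgeR's trimmed mean (0.914 to 1.04). AE knockdown replicate 3 stood apart from the other libraries: on the first principal component, with 56.5% of the variance, it lay at 102.4, the other AE knockdown libraries at 46.1 and 29.7, those with LYL1 shRNAs from -37.6 to -23.2, and control libraries from -31.2 to -30.1. RUNX1T1, the ETO part of the fusion, was at 52.6%, 63.0% and 40.5% of the control mean in AE knockdown replicates 1, 2 and 3. RUNX1, the AML1 part, was at 63.5%, 61.0% and 52.3% in the same order and was called lower (log2 fold change -0.76, edgeR adjusted p = 0.0119). LYL1 was at 49.5%, 60.5% and 27.0% of the control mean with shRNAs 538, 540 and 542, with a log2 fold change of -1.13 that was not called (edgeR adjusted p = 0.526; 0.0217 in DESeq2). The 10 monocyte and macrophage markers summed to 68.6 to 555 CPM in AE knockdown libraries, to 46.7 to 61.6 CPM in LYL1 knockdown libraries and to 27.3 to 27.6 CPM in control libraries. CD163 was at 0 in every AE and LYL1 knockdown library and CD68 at 0 in every AE knockdown library. CD14, CD68 and CD163 were near 0 in all groups, with no library above 0.151 CPM. Of the 10 markers 7 were tested, and 6 of these rose with AE knockdown (edgeR adjusted p below 0.05), beside 11.4% of all genes tested. With LYL1 knockdown 0 passed that test, which 2 of 14741 genes did. In 3 of the 7 all LYL1 knockdown libraries lay above all control libraries, beside 8.41% of all genes tested, and the median log2 fold change was 1.28. The 5 myeloblast markers CD34, KIT, MPO, CD33 and RUNX1T1 summed to 17591 to 33967 CPM in AE knockdown libraries, 12605 to 17599 CPM in LYL1 knockdown libraries and 18893 to 21870 CPM in control libraries. Most of that sum was MPO, which averaged 26402 CPM in AE knockdown libraries, 13842.5 CPM in LYL1 knockdown libraries and 19468 CPM in control libraries. Of these 5, CD33 was called higher with AE knockdown (log2 fold change 2.01, edgeR adjusted p = 0.00103), RUNX1T1, which the knockdown targets, was called lower (-0.94, edgeR adjusted p = 0.00778), and CD34, KIT and MPO were not called. The 8 lymphoid, epithelial and stromal markers summed to at most 7.0 CPM, with MS4A1, KRT18 and COL1A2 at 0 throughout. Their part in the results below was not tested. In these bulk libraries, fewer cells of a type and less RNA per cell cannot be told apart.

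A gene is called changed at a Benjamini-Hochberg adjusted p below 0.05 in edgeR's quasi-likelihood test over the 14741 genes that passed the low-count filter, with all 9 libraries in the model. Of the 10 genes, 7 passed the filter. EGR2, EGR3 and IER3 did not. ARC passed through its LYL1 knockdown and control libraries, since no AE knockdown library reached the filter's level of 0.394 CPM.

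EGR1 encodes a zinc finger transcription factor that carries growth and stress signals to its target genes. It was at 1.11, 5.67 and 0.913 CPM in AE knockdown replicates 1, 2 and 3, at 22.2, 6.88 and 9.77 CPM with LYL1 shRNAs 538, 540 and 542, and at 10.5, 8.62 and 8.98 CPM in control replicates 1, 2 and 3. All AE knockdown libraries lay below all libraries of the other groups, but replicate 2 lay well above the other two, at 60.6% of the control mean against 11.8% and 9.76%. The raw counts behind these values were 31, 161 and 19 in AE knockdown libraries, 578, 178 and 196 in LYL1 knockdown libraries, and 259, 229 and 214 in control libraries. The log2 fold change of AE knockdown against control was -1.83 (SE 0.62) and was not called (edgeR adjusted p = 0.0595). Without AE knockdown replicate 2 it was -3.19 and called (edgeR adjusted p = 0.00399), and limma-voom also called it (-2.30, adjusted p = 0.0288). It was also called without LYL1 shRNA 538, which enters the estimate of spread (edgeR adjusted p = 0.0448). With LYL1 knockdown EGR1 averaged 12.9 ± 8.12 CPM, against 9.36 ± 0.984 CPM in control libraries (SD, n = 3 each), and the groups overlapped (log2 fold change 0.47, SE 0.56, edgeR adjusted p = 0.99981). AE knockdown against LYL1 knockdown, the test of the difference between the knockdowns, gave a called log2 difference of -2.30 (SE 0.62, edgeR adjusted p = 0.0282). The difference no longer passed without control replicate 1 or 2 (adjusted p = 0.0501 and 0.0507), AE knockdown replicate 1 or 3 (0.0651 and 0.0740), or LYL1 shRNA 542 (0.0548), with no low-count filter (0.143) and in a fit of the 6 libraries compared (0.0842). Without LYL1 shRNA 538, its highest library, the difference was -1.66 (adjusted p = 0.0958), and without AE knockdown replicate 2 it was -3.66.

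EGR2 and EGR3 encode the nearest relatives of EGR1 and were close to the limit of detection in every library. EGR2 had 3, 5 and 1 counts in AE knockdown libraries, 3, 2 and 3 in LYL1 knockdown libraries, and 2, 1 and 3 in control libraries. EGR3 had 3, 1 and 1 counts in AE knockdown libraries, 8, 1 and 2 in LYL1 knockdown libraries, and 0, 1 and 1 in control libraries. Apart from 5 counts of EGR2 and 8 of EGR3 in 1 library each, these counts are at or under 3, the upper limit that a count of 0 allows, so no difference between groups was detectable at this depth and no fold is given. The 8 EGR3 counts were in the library of LYL1 shRNA 538, which also held the highest EGR1 level.

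NR4A1, also known as NUR77, is an orphan nuclear receptor that is induced as an immediate early gene in many blood cells. It was at 2.39, 2.78 and 1.30 CPM in AE knockdown libraries, at 11.6, 3.44 and 6.73 CPM with LYL1 shRNAs 538, 540 and 542, and at 7.24, 7.04 and 4.99 CPM in control libraries. All AE knockdown libraries lay below all others, and the LYL1 knockdown and control libraries overlapped. NR4A1 fell 2.92-fold with AE knockdown (log2 fold change -1.55, SE 0.42, edgeR adjusted p = 0.0259). That call was gone without control replicate 1, 2 or 3 (adjusted p = 0.0831, 0.0837 and 0.0553) and without AE knockdown replicate 1 (0.0503) or 3 (0.0697, log2 fold change -1.32). LYL1 knockdown against control gave 0.18 (SE 0.39, edgeR adjusted p = 0.99981). NR4A1 was 3.30-fold lower in AE knockdown than in LYL1 knockdown (log2 difference -1.72, SE 0.42, edgeR adjusted p = 0.0182), and this no longer passed without LYL1 shRNA 538 (-1.20, adjusted p = 0.0658) or in a fit of the 6 libraries compared (0.0570). In GENCODE annotation the exons of NR4A1 overlap those of AC025259.3 on the other strand, which has no entry among the genes counted. Since the strand setting of the counting is not given in the sources used here, reads of the pair cannot be told apart. The same holds for EGR3, IER2 and IER3, whose exons overlap AC055854.1, AC011446.2 and IER3-AS1 on the other strand, each listed at 0 counts in total.

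ARC encodes a cytoskeleton-associated protein best known from neurons, where it follows synaptic activity. It had 2, 3 and 0 counts in AE knockdown libraries, 34, 47 and 54 counts with LYL1 shRNAs 538, 540 and 542, and 11, 20 and 15 counts in control libraries. The 3 groups did not overlap: AE knockdown was lowest, at 0 to 0.106 CPM, control followed at 0.445 to 0.753 CPM, and LYL1 knockdown was highest, at 1.30 to 2.69 CPM. ARC fell with AE knockdown (edgeR adjusted p = 0.0105). The 5 counts of the AE knockdown libraries against the 46 of the control libraries come, after scaling for library size, to 10.6% of the control level, with an exact 95% interval of 3.28% to 26.5% that covers counting error only. The call held in all alternatives at the same threshold that kept the gene, up to an adjusted p of 0.0498, and the fitted log2 value of -3.15 moved to -3.75 without AE knockdown replicate 2. With LYL1 knockdown ARC was 3.10-fold higher than control in the fit (log2 fold change 1.63, SE 0.38), but over all genes it was not called (edgeR adjusted p = 0.481, unadjusted p = 0.000881). The difference between the knockdowns was called, with the AE knockdown libraries at 3.45% of the LYL1 knockdown level by counts (exact 95% interval 1.10% to 8.26%, edgeR adjusted p = 0.00119). The fitted log2 difference was -4.78, and -5.38 without AE knockdown replicate 2.

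**Figure D1:**
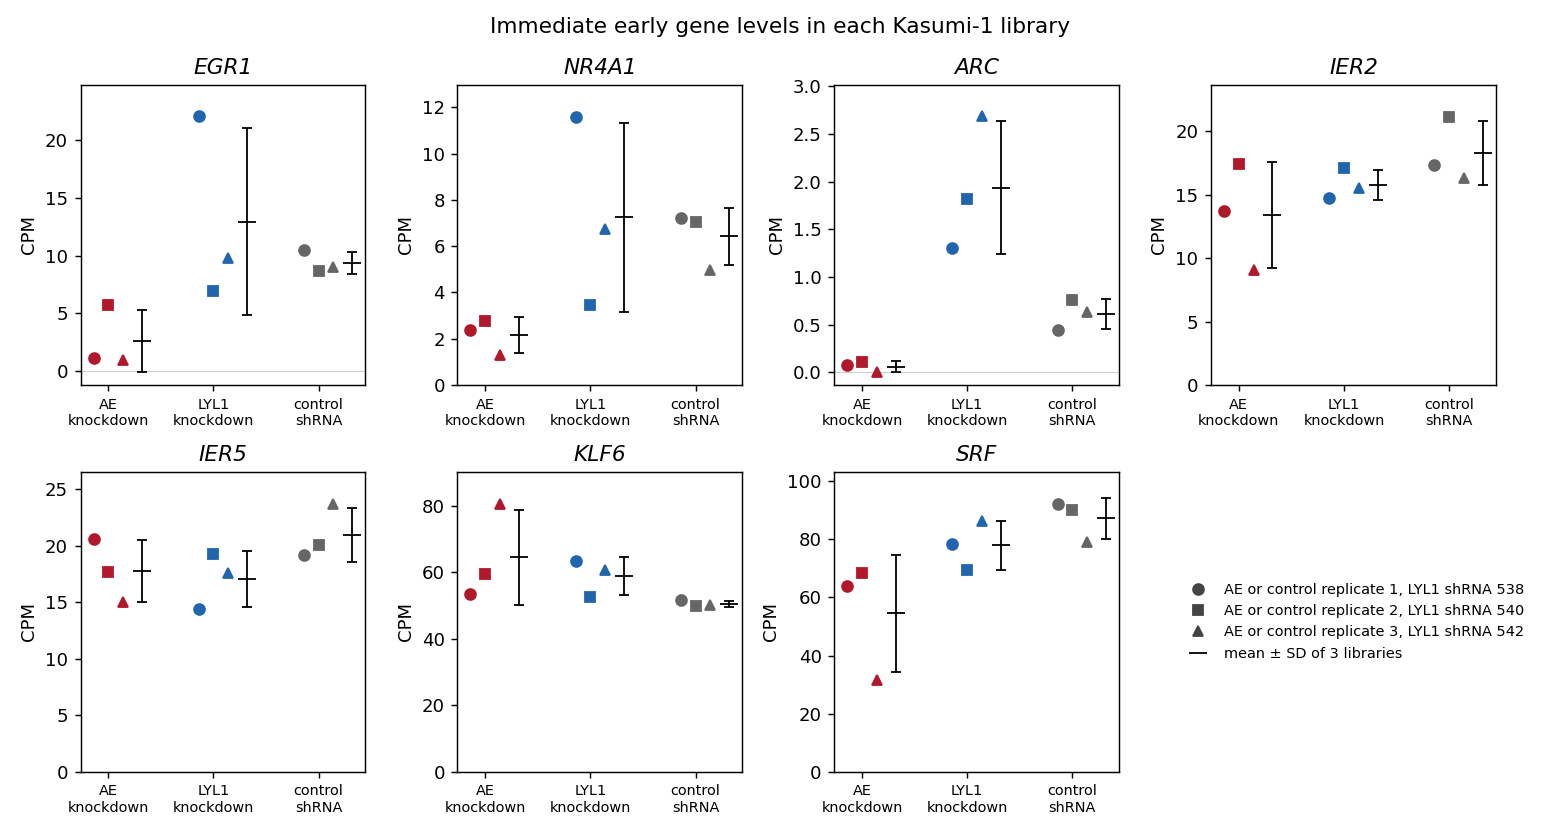
CPM on linear axes, each from about 0, of the 7 immediate early genes that passed the low-count filter, with 1 point per library and the mean ± SD of 3 libraries per group beside them. AE knockdown libraries lie below all others for EGR1, NR4A1, ARC and SRF, and LYL1 shRNA 538 is the highest point of EGR1 (22.2 CPM) and NR4A1 (11.6 CPM).

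SRF, the MADS box factor that binds CArG boxes and switches on other immediate early genes and many cytoskeletal genes, was at 64.0, 68.2 and 31.4 CPM in AE knockdown libraries, 78.4, 69.4 and 86.2 CPM in LYL1 knockdown libraries, and 92.2, 90.2 and 79.0 CPM in control libraries. AE knockdown replicate 3 was the lowest of the 9 at 36.1% of the control mean, and the other AE knockdown libraries lay at 73.5% and 78.3%. All AE knockdown libraries lay below all others, with a log2 fold change against control of -0.67 (SE 0.24) that was not called (edgeR adjusted p = 0.0666). It was called by DESeq2 (adjusted p = 0.0363) and without AE knockdown replicate 2 (-0.87, edgeR adjusted p = 0.0299), and was -0.41 without AE knockdown replicate 3 (adjusted p = 0.0542). The LYL1 knockdown libraries overlapped the control libraries (log2 fold change -0.16, SE 0.24, edgeR adjusted p = 0.99981). AE knockdown against LYL1 knockdown gave -0.51 (SE 0.24, edgeR adjusted p = 0.148).

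IER2 encodes a small nuclear protein of the early growth response. It was at 13.8, 17.4 and 9.04 CPM in AE knockdown libraries, 14.8, 17.1 and 15.5 CPM in LYL1 knockdown libraries, and 17.4, 21.1 and 16.3 CPM in control libraries, and the AE knockdown and control groups overlapped. AE knockdown gave IER2 a log2 value of -0.44 (SE 0.22, edgeR adjusted p = 0.170), and it was called without AE knockdown replicate 2 (-0.68, adjusted p = 0.0388). IER5, a relative of IER2 that acts on the heat shock factor HSF1, was at 20.6, 17.7 and 15.0 CPM in AE knockdown libraries, 14.4, 19.3 and 17.5 CPM in LYL1 knockdown libraries, and 19.2, 20.0 and 23.7 CPM in control libraries. Neither knockdown gave a called difference from control for IER5, with log2 fold changes of -0.24 (SE 0.18) for AE and -0.30 (SE 0.18) for LYL1 (edgeR adjusted p = 0.348 and 0.99981).

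KLF6, a zinc finger factor of the Krüppel-like family, was the only tested member with all AE knockdown libraries above all control libraries. It was at 53.5, 59.4 and 80.7 CPM in AE knockdown libraries, 63.5, 52.6 and 60.6 CPM in LYL1 knockdown libraries, and 51.6, 49.9 and 50.2 CPM in control libraries. All 6 knockdown libraries lay above the 3 control libraries, which differed among themselves by 1.79% (SD over mean). Of all genes tested, 23.1% had all AE knockdown libraries above control and 8.41% had all LYL1 knockdown libraries above control. Neither difference was called, with log2 fold changes of 0.35 (SE 0.16, edgeR adjusted p = 0.138) for AE and 0.22 (SE 0.16, edgeR adjusted p = 0.99981) for LYL1. AE knockdown replicate 3 was the highest, and without it the value for AE was 0.15.

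IER3, a stress-induced gene linked to cell survival, is listed at 0 in all 9 libraries. On the human assembly GRCh38 its 20 nearest protein-coding neighbours on chromosome 6, 10 on each side, include 13 that are also listed at 0 in every library and 19 with fewer than 100 counts in total. Of all 18852 protein-coding genes, 19.9% were at 0 and 41.3% were under 100. FLOT1 and TUBB, which most cells express, were among those neighbours, with 1 and 170 counts over the 9 libraries. The value of IER3 is therefore given as listed at 0 and not as a level.

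Of the 7 genes tested, 2 were called lower with AE knockdown (NR4A1 and ARC) and none higher (edgeR adjusted p), against 10.4% of all genes tested that were called lower and 11.4% called higher. At an unadjusted p below 0.05, 4 were lower and 0 higher, beside 17.1% and 20.1% of all genes. DESeq2 and limma-voom each called 3 lower and 0 higher, where DESeq2 called 13.4% of all genes lower and 13.2% higher and limma-voom 10.6% and 9.46%. In 4 of the 7 all AE knockdown libraries lay below all control libraries, which 22.2% of all genes did, and in 1 all lay above, which 23.1% did. The median log2 fold change of the 7 was -0.67, beside 0.05 over all genes tested, and 6 of the 7 values were negative. The members were chosen with earlier results of these data known, so these counts and medians are a description. One of the 7, ARC, entered the test only through the groups in which it was high, so its calls add no support to these counts or those below. With the strict filter, which removed ARC, NR4A1 was the 1 member called lower against control, beside 12.5% of all genes. Against LYL1 knockdown, AE knockdown gave 3 called lower (EGR1, NR4A1 and ARC) and 0 higher, beside 9.7% and 10.7% of all genes, with a median of -0.51 beside 0.03. All AE knockdown libraries lay below all LYL1 knockdown libraries in 4 of the 7 (17.2% of all genes) and above in 0 (18.2%). With LYL1 knockdown against control edgeR called 0 of the 7, as did DESeq2 and limma-voom. The LYL1 knockdown libraries lay above all control libraries in 2 of the 7, KLF6 and ARC (8.41% of all genes), and below in 0 (8.17%). ARC was the 1 member at an unadjusted p below 0.05, and 711 genes in all (4.82%) were. That comparison called 2 of 14741 genes (0.0136%) in edgeR and 33 in DESeq2. The comparisons share libraries and so are not independent of one another.

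**Figure D2:**
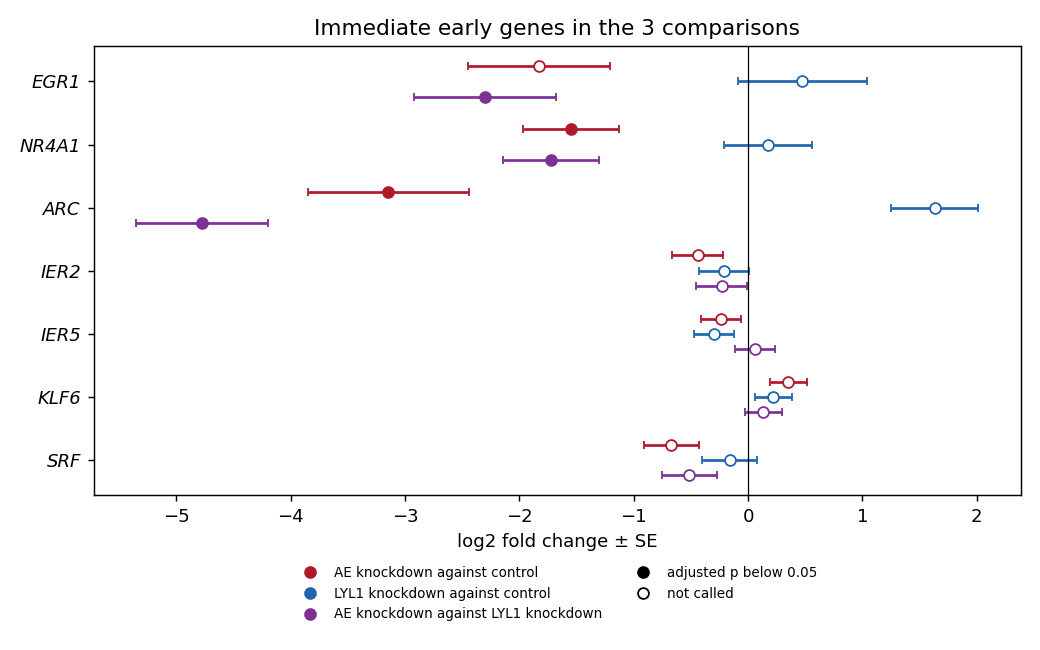
Log2 fold change ± SE from the edgeR model for each of the 7 tested genes in the 3 comparisons, with filled points at an adjusted p below 0.05. Filled points are NR4A1 and ARC in AE knockdown against control, and EGR1, NR4A1 and ARC in AE knockdown against LYL1 knockdown, and none in LYL1 knockdown against control.

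The spread within a group differed between genes. The coefficient of variation (SD over mean) of EGR1 was 105% over AE knockdown libraries, 62.8% over LYL1 knockdown libraries and 10.5% over control libraries, and that of NR4A1 was 35.7% over AE knockdown, 56.5% over LYL1 knockdown and 19.4% over control libraries. SRF varied by 36.9% over AE knockdown libraries, 10.8% over LYL1 knockdown libraries and 8.13% over control libraries. AE knockdown replicate 3, the library with the least RUNX1T1, was the lowest AE knockdown library for EGR1, IER2, IER5, NR4A1, SRF and ARC and the highest for KLF6, and it also had the highest sum of monocyte and macrophage markers, at 555 CPM against 68.6 and 106 CPM in replicates 1 and 2. AE knockdown replicate 2, which kept the most RUNX1T1, was the highest AE knockdown library for EGR1, IER2, NR4A1, SRF and ARC, the last by 3 counts against 2 in replicate 1. IER5 was highest in replicate 1, which kept the most RUNX1 (63.5% of the control mean, against 61.0% in replicate 2). A relation between these levels and the remaining RUNX1T1 or RUNX1 was not tested. With AE knockdown replicate 2 left out 5 members were called lower, beside 12.9% of all genes tested. With AE knockdown replicate 1 or 3 left out 1 was, beside 9.77% and 9.25% of all genes, and with any 1 control library left out 1 was, beside 3.51% to 3.97%. That member was ARC each time, which entered the test only through its LYL1 knockdown and control libraries. Every one of the 7 kept its sign against control in AE knockdown in each of the 9 fits that left out 1 library.

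**Figure D3:**
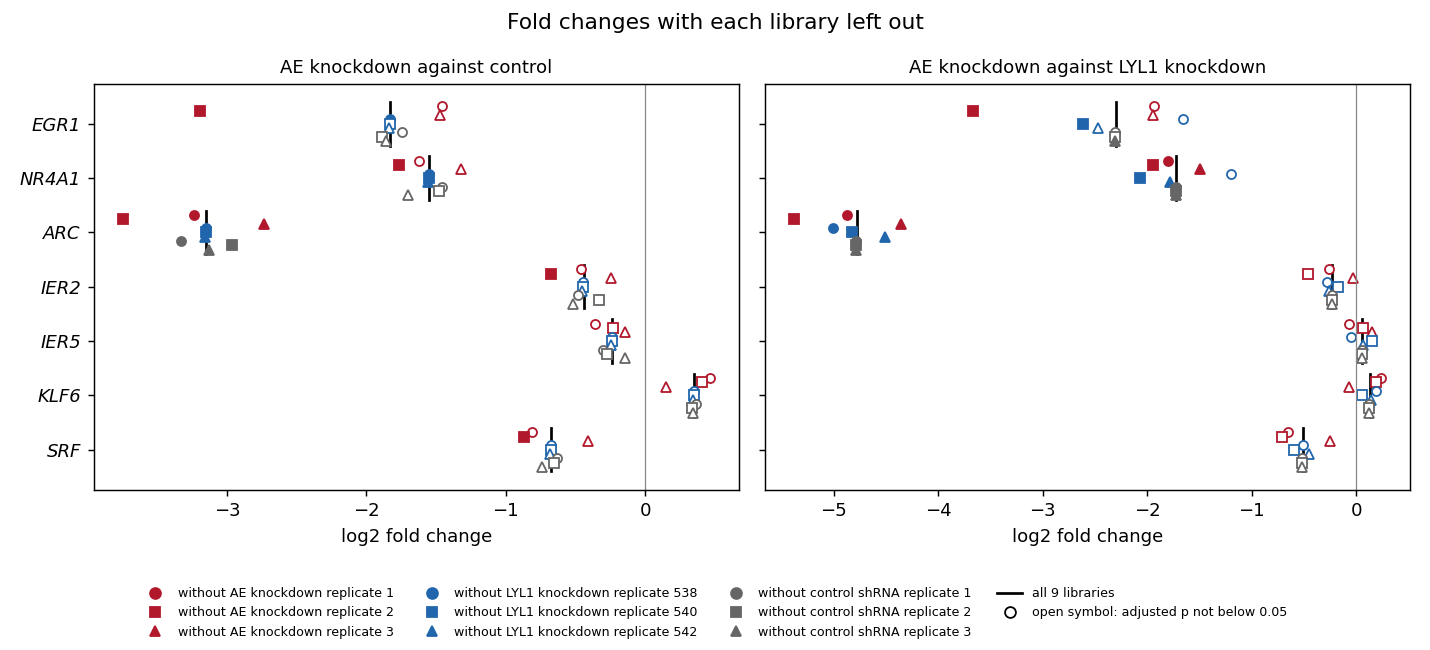
Log2 fold change of the 7 tested genes in 9 fits that each left out 1 library (symbols) and with all 9 libraries (black bars), for AE knockdown against control on the left and against LYL1 knockdown on the right; open symbols have an adjusted p of 0.05 or more. EGR1 moved farthest, to -3.19 and -3.66 without AE knockdown replicate 2. ARC, which passed the low-count filter only through its LYL1 knockdown and control libraries, stayed filled throughout.

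Promoter sequence was taken from the RefSeq table of human assembly GRCh38.p14, as the 250 bases before each transcription start. Of the 10 genes, 7 matched the table. EGR3, IER3 and ARC did not. Each window was searched on both strands for 4 motifs: the CArG box of SRF, TGACG (the core shared by cAMP response elements), GCGTGGGCG or GCGGGGGCG (the EGR type) and TGTGGT or TGCGGT (the RUNX type, bound by AML1). No match overlapped another. Of 35116 such windows in the table, 1.16% hold a CArG box, 21.2% TGACG, 5.37% an EGR-type match and 16.3% a RUNX-type match. The windows of EGR1, SRF and KLF6 are shown because their matches differ. Those of the 2 listed NR4A1 starts are shown because NR4A1 was called lower and they hold no match. Any other starts of these genes were not searched. The coordinates are chr5:138465229-138465478 on the plus strand for EGR1, chr6:43171019-43171268 on the plus strand for the first SRF start, chr10:3785210-3785459 on the minus strand for KLF6, and chr12:52022582-52022831 and chr12:52037465-52037714 on the plus strand for the NR4A1 starts. Capitals mark the motif matches.
EGR1: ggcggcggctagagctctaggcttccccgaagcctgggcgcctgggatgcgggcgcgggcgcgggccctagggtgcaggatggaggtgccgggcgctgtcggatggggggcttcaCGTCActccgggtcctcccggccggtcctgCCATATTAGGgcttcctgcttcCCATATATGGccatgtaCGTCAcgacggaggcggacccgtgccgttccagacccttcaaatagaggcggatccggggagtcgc
SRF, first start: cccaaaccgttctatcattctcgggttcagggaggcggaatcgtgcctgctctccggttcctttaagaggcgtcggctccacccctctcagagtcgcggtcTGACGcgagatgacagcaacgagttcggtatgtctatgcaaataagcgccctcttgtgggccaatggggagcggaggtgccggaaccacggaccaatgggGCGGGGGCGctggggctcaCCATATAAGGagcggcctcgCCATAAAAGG
KLF6: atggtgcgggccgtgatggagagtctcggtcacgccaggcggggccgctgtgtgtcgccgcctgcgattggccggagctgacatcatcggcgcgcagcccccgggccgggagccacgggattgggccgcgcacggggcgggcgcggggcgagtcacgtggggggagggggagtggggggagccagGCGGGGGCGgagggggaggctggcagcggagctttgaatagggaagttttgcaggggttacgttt
NR4A1, first start: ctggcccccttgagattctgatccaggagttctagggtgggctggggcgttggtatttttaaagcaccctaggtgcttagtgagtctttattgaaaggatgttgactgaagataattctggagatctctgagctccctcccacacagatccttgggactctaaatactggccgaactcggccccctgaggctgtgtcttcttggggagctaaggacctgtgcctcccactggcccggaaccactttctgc
NR4A1, second start: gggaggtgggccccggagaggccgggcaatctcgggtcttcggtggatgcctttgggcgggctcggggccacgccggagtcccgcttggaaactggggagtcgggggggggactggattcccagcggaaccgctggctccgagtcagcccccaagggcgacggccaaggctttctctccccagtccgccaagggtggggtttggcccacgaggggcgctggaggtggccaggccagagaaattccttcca

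EGR1 held 2 CArG boxes, at 105 to 96 and 83 to 74 bases before the start, between 2 TGACG matches at 135 to 131 and 66 to 62 bases, both on the other strand. The first SRF start also held 2 CArG boxes, at 30 to 21 and 10 to 1 bases, with an EGR-type match at 49 to 41 bases and a TGACG match at 149 to 145 bases. The second SRF start had 1 RUNX-type match on the other strand and no CArG box. The third of 3 EGR2 starts held 1 CArG box at 71 to 62 bases with a TGACG match on each side. KLF6 held 1 EGR-type match at 65 to 57 bases and IER2 1 TGACG match at 140 to 136 bases. The windows of IER5 and of both NR4A1 starts held none of these letters. A match is a description of the sequence, and both EGR1, which was lower in all AE knockdown libraries, and EGR2, at or near 0 in every library, carry CArG boxes.

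**Figure D4:**
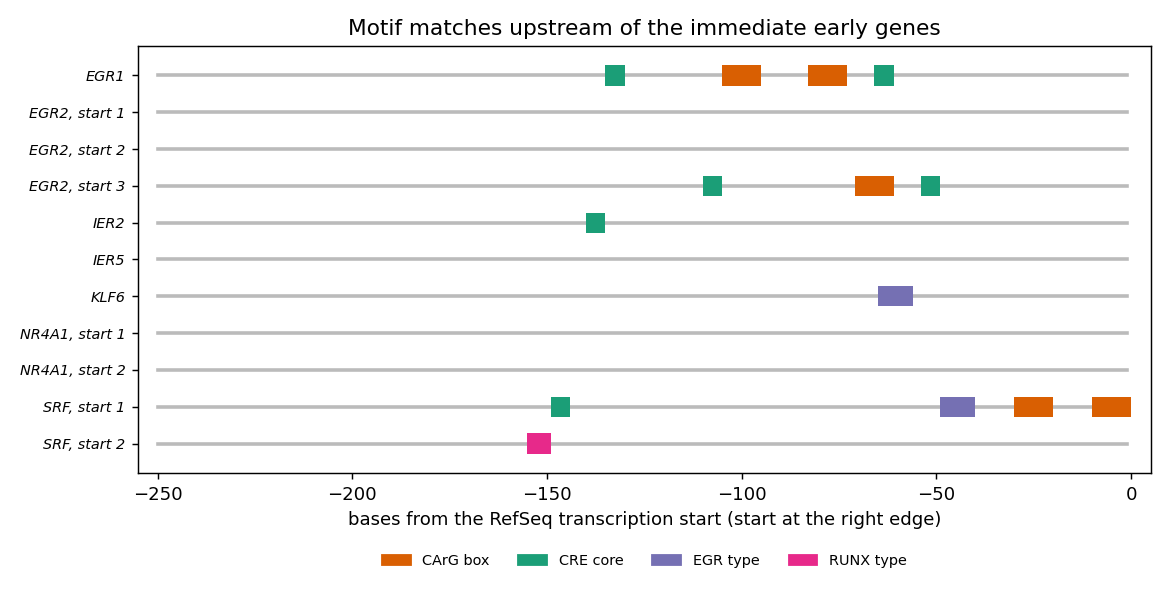
Positions of the motif matches in the 250 bases before each RefSeq start of the 7 genes with a promoter in the table (x axis in bases from the start, which is at the right edge; CRE core stands for TGACG). CArG boxes are in the windows of EGR1, the third EGR2 start and the first SRF start.

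Related gene lists place these values in their pathway. The lists were chosen with earlier results of these data known, and their counts are a description, to be read beside the 10.4% of all genes tested that were called lower with AE knockdown and the 11.4% called higher. Of 8 AP-1 subunits, the FOS, JUN and ATF proteins that make up the other large family of immediate early factors, 4 were called lower with AE knockdown, beside 10.4% of all genes, and none higher, with a median log2 fold change of -1.07. FOSL2 was at 25.8, 38.7 and 28.9 CPM in AE knockdown libraries, against 94.5, 90.3 and 82.5 CPM in control libraries (log2 fold change -1.52, edgeR adjusted p = 0.00103). FOSL1 was at 2.54, 2.39 and 1.35 CPM in AE knockdown libraries, against 10.3, 10.4 and 7.59 CPM in control libraries (-2.15, edgeR adjusted p = 0.00384). Both are relatives of FOS that bind DNA with a JUN partner. FOS itself, a classic SRF target, was at 0.572, 0.563 and 0.577 CPM in AE knockdown libraries, against 1.54, 2.07 and 1.22 CPM in control libraries (-1.50, edgeR adjusted p = 0.0188). ATF3, a stress-induced member, was at 1.93, 3.59 and 0.144 CPM in AE knockdown libraries, against 6.15, 6.55 and 8.94 CPM in control libraries (-1.87, edgeR adjusted p = 0.0344). In all 4, which were named because they were called, the AE knockdown libraries lay below the control libraries, beside 22.2% of all genes tested.

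The list of ERK feedback genes holds 9 genes, inhibitors of the pathway and the ERK targets ETV4 and ETV5. Of the 9, 8 were tested, 4 were called lower, beside 10.4% of all genes, and none higher, with a median of -1.23. DUSP6, the phosphatase that switches ERK off, was at 55.5, 79.5 and 13.03 CPM in AE knockdown libraries, against 156.7, 153.5 and 140.3 CPM in control libraries (log2 fold change -1.60, edgeR adjusted p = 0.0351). The ETS factors ETV4 and ETV5, both known targets of ERK signalling, had log2 fold changes of -2.64 and -2.12 (edgeR adjusted p = 0.0118 and 0.00878). ETV4 was at 0.786, 2.15 and 0 CPM in AE knockdown libraries (22, 61 and 0 counts), against 6.71, 7.04 and 5.71 CPM in control libraries. ETV5 was at 14.2, 22.0 and 4.42 CPM in AE knockdown libraries, against 59.0, 64.0 and 55.4 CPM in control libraries. SPRED1, an inhibitor of RAS signalling, had a log2 fold change of -1.49 (edgeR adjusted p = 0.00911). As for EGR1, NR4A1 and SRF, the lowest library for DUSP6, ETV4, ETV5 and SPRED1 was AE knockdown replicate 3 and the highest of the AE knockdown libraries was replicate 2. The other 4 tested genes, inhibitors of the same pathway, were not called. SPRED2, a relative of SPRED1, was at 30.2, 35.8 and 10.5 CPM in AE knockdown libraries, against 50.6, 53.1 and 46.8 CPM in control libraries, with all AE knockdown libraries below (-0.97, edgeR adjusted p = 0.0673). DUSP5, SPRY1 and SPRY2 had values of 0.14, 0.02 and -0.04.

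Of 8 SRF cofactors and EGR corepressors 7 were tested, 2 (28.6%) were called lower, beside 10.4% of all genes, and none higher, with a median of -0.36, and all 7 values were negative. ELK3, a ternary complex factor, was at 38.6, 35.0 and 27.8 CPM in AE knockdown libraries, against 84.2, 85.2 and 82.4 CPM in control libraries (log2 fold change -1.31, edgeR adjusted p = 0.00308). Its relatives ELK1 and ELK4 had values of -0.22 and -0.24 and were not called. NAB1, which binds EGR proteins and represses their targets, was at 30.3, 27.0 and 28.6 CPM in AE knockdown libraries, against 39.8, 44.1 and 44.0 CPM in control libraries (-0.57, edgeR adjusted p = 0.0126), while NAB2 had -0.57 with a wider error and was not called (edgeR adjusted p = 0.198). Of 16 cytoskeletal targets of SRF and its MRTF cofactors 14 were tested, none was called lower and 2 (14.3%) were called higher, near the 11.4% of all genes, with a median of 0.02. Those 2 were FLNA, which crosslinks actin filaments (0.91, edgeR adjusted p = 0.0274), and TAGLN2, an actin-binding transgelin (0.56, edgeR adjusted p = 0.0194). The myosin gene MYH9 had -0.68, with all AE knockdown libraries below the control libraries, and was not called (edgeR adjusted p = 0.0726).

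Of 18 other early response genes 13 were tested, 2 (15.4%) were called lower and 2 higher, near the 10.4% and 11.4% of all genes, with a median of 0.24. IER5L, the IER5-like gene, was at 2.22, 3.13 and 1.78 CPM in AE knockdown libraries, against 8.53, 9.75 and 7.85 CPM in control libraries (log2 fold change -1.86, edgeR adjusted p = 0.00165). IER5 itself, as given above, was not called. MAFF, a small MAF factor, was at 1.04, 0.774 and 1.11 CPM in AE knockdown libraries, against 3.15, 3.31 and 2.98 CPM in control libraries (-1.70, edgeR adjusted p = 0.00507). RHOB, a small GTPase, was at 15.3, 23.4 and 15.8 CPM in AE knockdown libraries, against 10.4, 11.3 and 10.1 CPM in control libraries (0.78, edgeR adjusted p = 0.0382). NFIL3, a bZIP repressor, was at 3.39, 4.01 and 10.3 CPM in AE knockdown libraries, against 2.63, 1.73 and 2.64 CPM in control libraries (1.32, edgeR adjusted p = 0.0476). In all 4, which were named because they were called, the AE knockdown and control libraries did not overlap. Of all genes tested, 22.2% had all AE knockdown libraries below control and 23.1% above. NR4A2 and NR4A3, the relatives of NR4A1, and EGR4 did not pass the low-count filter.

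Over these 5 lists 16 of the 50 tested genes were called with AE knockdown, beside 10.4% of all genes called lower and 11.4% higher. All 16 kept their sign in every alternative, and 8 kept their call in all 9 fits that left out 1 library: FOSL2, FOSL1, ETV4, ETV5, SPRED1, ELK3, IER5L and MAFF. RHOB, NFIL3, TAGLN2, FLNA, DUSP6 and ATF3 lost it without any 1 of the 3 control libraries (adjusted p of 0.0693 to 0.161), FOS without control replicate 1 or 2 (0.0580 and 0.0851), and NAB1 without control replicate 2 or 3 (0.0643 and 0.0551). RHOB also lost it without AE knockdown replicate 2 (0.0957), FLNA without AE knockdown replicate 1 or 3 (0.0537 and 0.0725), DUSP6 and ATF3 without AE knockdown replicate 1 (0.0586 and 0.0718), and NFIL3, at 0.66, without AE knockdown replicate 3 (0.152). LYL1 libraries enter the estimate of spread: NFIL3 also lost it without shRNA 538, 540 or 542 (0.0656, 0.0579 and 0.0543), RHOB and ATF3 without 540 (0.0560 and 0.0515) and DUSP6 without 542 (0.0505). Without AE knockdown replicate 2 the values of ETV4 and ATF3 were -3.87 and -2.68. Over all 20 alternatives NFIL3 lost its call in 13, ATF3 in 11 and DUSP6 in 8. With LYL1 knockdown none of the 50 tested genes of these lists was called in edgeR. Of them 6 had an unadjusted p below 0.05, beside 4.82% of all genes. DESeq2 called 1 of them, an AP-1 subunit, higher, beside 0.163% of all genes called higher. In AE knockdown against LYL1 knockdown the lists had 17 calls: 5 AP-1 subunits, 4 ERK feedback genes, 2 cofactors and 3 other early response genes lower, and 2 cytoskeletal targets and 1 other early response gene (RHOB) higher, out of 50 tested genes and beside 9.7% of all genes called lower and 10.7% higher. All 17 kept their sign in the 19 alternatives, and 12 kept their call in all 9 fits that left out 1 library. ETV5 and ATF3 lost it in 11 of the 19 alternatives, DUSP6 in 10, ETV4 in 5, RHOB in 4, JUN in 2 and PPP1R15A in 1. ETV5 and DUSP6 lost it without any 1 of the control or LYL1 libraries or without AE knockdown replicate 1 (adjusted p up to 0.112 and 0.0979), and ATF3 without control replicate 1 or 2, AE knockdown replicate 1 or any 1 LYL1 library (up to 0.0750). ETV4 lost it without LYL1 shRNA 542 (0.0523), and RHOB without 538 or 540 (0.0736 and 0.0622).

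**Figure D5:**
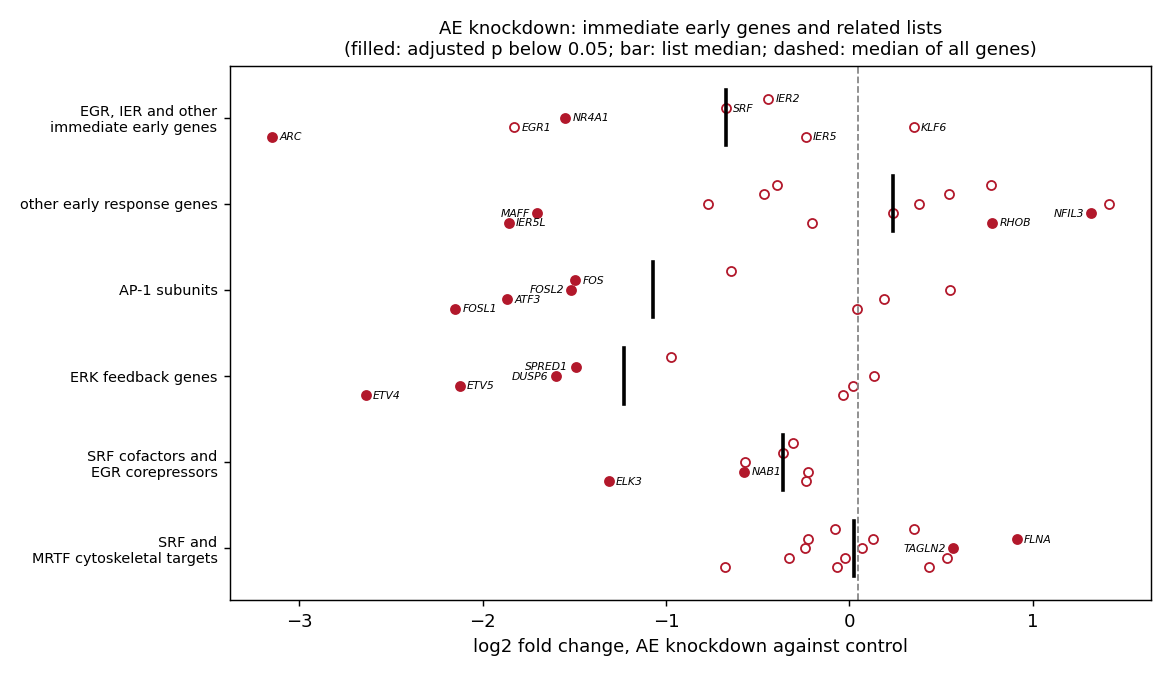
Log2 fold change of AE knockdown against control for each tested gene of the 10 immediate early genes and of 5 related lists; filled points have an adjusted p below 0.05, black bars are list medians and the dashed line is the median of all genes tested (0.05). The medians of AP-1 subunits (-1.07) and ERK feedback genes (-1.23) lie left of that of the immediate early genes (-0.67), and that of the cytoskeletal targets (0.02) at about 0.

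Genes whose pattern over the 9 libraries was most like that of each member were found by the root mean square distance between log2 CPM profiles centred on the control mean, among 10062 genes. The profiles share the same libraries, and the distance has no test. For EGR1 the nearest were CD226, SLC2A3 and JAM3, at 0.47, 0.52 and 0.55 log2 units, against a median distance of 1.56 over all candidates. For NR4A1 they were HK1, TTC7B and PGBD4P1 (0.32 to 0.34, median 1.06), and for ARC MRVI1, EDIL3 and ICAM1 (0.51 to 0.70, median 1.68). SRF had closer neighbours in ANKH, PRKDC and ZC3H4 (0.08 to 0.10, median 0.58), as did KLF6 in DECR1, DMAC2L and SCNM1 (0.06 to 0.07), IER2 in PRPF19, TFAP4 and DOLPP1 (0.09 to 0.11) and IER5 in CDKAL1, STRBP and ZFP82 (0.10 to 0.11). Among the members themselves the closest pair was IER2 and SRF (0.23), followed by IER2 and IER5 (0.28). NR4A1 lay closest to SRF (0.62) and EGR1 closest to NR4A1 (0.69), and ARC and KLF6 were the farthest pair (1.81).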

How the data were processed

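The authors deposited 1 table per library with the raw read count of each gene symbol; these counts are whole numbers with no normalisation. The submitters' processing notes name, without roles, hg19 as the build and featureCounts 2.0.1, HISAT2 2.2.0, fastp 0.20.1, DESeq2 1.26.0 and SAMtools 1.7 as tools. The annotation, strand setting and handling of multi-mapped reads are not given in the sources used here. A decimal suffix was removed from 5 gene names in 6 of the files.

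Here, counts were filtered with filterByExpr by group (minimum count 10), scaled with TMM on full library totals and tested by robust quasi-likelihood in edgeR 4.0.16 under R 4.3.3, with 9 libraries in 1 group-means model and Benjamini-Hochberg adjustment over 14741 genes. SE is the log2 fold change divided by the square root of F, without sign. DESeq2 1.42.0 and limma-voom (limma 3.58.1) were alternatives, with other scalings and filters, fits of 6 libraries, an adjusted p below 0.01, a replicate block and each library left out. No 2 libraries agreed within sampling noise: the closest pair, control replicates 1 and 2, differed with a chi-square of 4.05 per degree of freedom.

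The members and lists were chosen with earlier results of these data known. By rule, the text names all members, the knockdown targets, up to 4 called genes per list with the smallest adjusted p in the AE knockdown comparison, and for each tested member the 3 genes with the nearest profile (prior count 2, mean log2 CPM of at least 2). CD33, JUN, PPP1R15A, SPRED2, DUSP5, SPRY1, SPRY2, ELK1, ELK4, NAB2, MYH9, NR4A2, NR4A3, EGR4, FLOT1 and TUBB are outside the rule and were named after their values were seen.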

Additional observations from a re-analysis of the deposited data

How the results depend on the processing

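Of 20 alternatives, 19 were planned and 1, the legacy quasi-likelihood test, was added after seeing the data; it changed no member's call. With an adjusted p below 0.01 the calls were 813 for AE knockdown against control (3214 at 0.05), 1 for LYL1 knockdown against control (2) and 784 for AE knockdown against LYL1 knockdown (3003), with 0, 0 and 1 members and 7, 0 and 10 genes of the other lists. For LYL1 knockdown against control, library size only gave 5 calls (80% higher, against 50%), no low-count filter 8, the strict filter (50 counts in 3 libraries) 1, DESeq2 33 and a fit of the 6 libraries 15, with 1 gene of the other lists in each of the DESeq2 and 6-library fits. The strict filter removed ARC and left 1 member called lower with AE knockdown. The fit of 6 libraries gave 941 calls between the knockdowns, with 1 member and 11 genes of the other lists. With 1 library left out, AE knockdown against control had 954 to 4268 calls, 1 to 5 members lower and 8 to 20 genes of the other lists; LYL1 knockdown against control had 1 to 11 calls and 0 to 1 genes of the other lists; AE knockdown against LYL1 knockdown had 1460 to 4007 calls and 1 to 3 members lower. No cause of these changes was tested. The sign turned for uncalled values. With 1 library left out, AE knockdown against LYL1 knockdown ran from -0.0703 to 0.155 for IER5 (below 0 without AE knockdown replicate 1 or LYL1 shRNA 538) and from -0.0685 to 0.239 for KLF6 (below 0 without AE knockdown replicate 3). LYL1 knockdown against control ran from -0.18 to 0.78 for EGR1 and from -0.36 to 0.52 for NR4A1, both below 0 without LYL1 shRNA 538. Same-numbered AE knockdown and control libraries did not deviate together (correlations 0.04, -0.01 and 0.01), so the numbers were not taken as pairs; with the replicate block 1629 genes and 10 genes of the other lists were called, and the calls of the members stayed as they were. Depth limits EGR2, EGR3 and ARC, which hold 23, 18 and 186 counts over the 9 libraries. Counts of some called genes of the other lists were also low in AE knockdown replicates 1, 2 and 3. FOS had 16, 16 and 12, MAFF 29, 22 and 23, ETV4 22, 61 and 0, and ATF3 54, 102 and 3.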
